A study of Mus musculus with 7 samples.

Results

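The C/EBP genes are *Cebpa*, *Cebpb*, *Cebpd*, *Cebpe* and *Cebpg*, 5 of the 21938 protein-coding genes that GENCODE M21 lists on chromosomes 1 to 19, X and Y of the mouse. They were picked on values of these same files, since *Cebpb* had been seen in a long stretch of H3K27-Ac peaks, so the peaks at *Cebpb* and the size of its domain are given as a description and no test was made on them. The material was 3 tumour cell clones of an FVB/129P2 backcross, all *Cdkn2ab*-/-, grown from skin carcinomas and selected in soft agar for growth without anchorage. Each is a single clone. H3K27-Ac, an acetylated histone found at active promoters and enhancers, was measured by ChIP-seq in 4 libraries, 1 each of clones 1 and 2 and 2 pooled ones of clone 3, beside 3 IgG libraries of clones 1 and 3. There was 1 condition and no treated group. Values are therefore given for each clone, or as mean ± SD over the 3 clones.

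The lists of clones 1, 2 and 3 held 29182, 49587 and 29277 peaks. At the summit, the highest point of a peak, the median was 37, 34 and 53 reads. The weakest peak listed had 13, 12 and 25 reads, so a site below that depth could not be seen. Fold enrichment sets the ChIP pileup, scaled to the control, over the local control background, each plus 1, and its median was 7.70, 7.14 and 5.38. Because the lists differ in this way, a peak is also placed by its percentile within its own list. Where summits of clones 1 and 2 lay within 10 bp of each other and both backgrounds were at least 2 control reads, these were equal at 402 of 469 sites, against 60 of 310 for clones 1 and 3, so the controls of clones 1 and 2 largely hold the same reads and are not independent. Of the 9 markers of basal keratinocytes and hair germ, 4 had a promoter peak in clones 1 and 2 each and 3 in clone 3, and *Krt5*, *Trp63* and *Cdh1*, which mark epidermal or epithelial cells, had none in any clone, nor did *Lef1*. *Itga6*, *Cdh3* and *Sox9* had a promoter peak in all 3 clones. Of 5 fibroblast markers 4, 4 and 1 had a promoter peak, of 4 blood cell markers 1, 2 and 0, of 3 melanocyte markers 1 in each clone, and of the 3 markers each of endothelium and fat cells none. Of all protein-coding genes, 49.8%, 56.9% and 48.1% had one in clones 1, 2 and 3. Marker counts near that share say little about cell type.

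C/EBP proteins are transcription factors with a basic region that binds DNA and a leucine zipper through which they pair with each other or with ATF proteins. C/EBPα and C/EBPβ act in the differentiation of fat cells, liver, myeloid cells and epidermis, where both restrain the growth of keratinocytes. C/EBPβ and C/EBPδ, encoded by *Cebpb* and *Cebpd*, are induced by inflammatory signals such as interleukin 6 and interleukin 1. C/EBPε works in late neutrophil maturation, and C/EBPγ, which lacks a transactivation domain, pairs with other members and with ATF4.

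Promoter sequences of *Cebpa*, *Cebpb* and *Cebpg* are shown as the 3 of the 5 genes matched to a RefSeq promoter entry, and each had a promoter peak in every clone. Each run is the 250 bases before the RefSeq start, 5′ to 3′ on the strand of the gene, in GRCm38.p6. Capitals mark a match to any of 6 motifs searched on both strands, which were the C/EBP motif TTGCGNAA, the C/EBP-ATF motif TGATGCAA, the AP-1 motif TGANTCA, the cAMP response element TGACGTCA, its variant TGACGCAA and the TATA box TATAAA. *Cebpa* lies at chr7:35119043-35119292 on the plus strand, *Cebpb* at chr2:167688665-167688914 on the plus strand and *Cebpg* at chr7:35056567-35056816 on the minus strand.
Cebpa: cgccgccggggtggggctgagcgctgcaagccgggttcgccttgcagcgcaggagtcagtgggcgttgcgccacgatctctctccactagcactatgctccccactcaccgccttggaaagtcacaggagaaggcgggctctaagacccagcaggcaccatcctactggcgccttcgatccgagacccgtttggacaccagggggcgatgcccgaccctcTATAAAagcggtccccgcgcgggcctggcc
Cebpb: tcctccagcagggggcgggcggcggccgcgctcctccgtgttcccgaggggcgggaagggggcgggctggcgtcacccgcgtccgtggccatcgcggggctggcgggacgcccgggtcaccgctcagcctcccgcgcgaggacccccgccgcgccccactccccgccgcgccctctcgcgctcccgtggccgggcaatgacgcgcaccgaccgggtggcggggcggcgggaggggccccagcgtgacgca
Cebpg: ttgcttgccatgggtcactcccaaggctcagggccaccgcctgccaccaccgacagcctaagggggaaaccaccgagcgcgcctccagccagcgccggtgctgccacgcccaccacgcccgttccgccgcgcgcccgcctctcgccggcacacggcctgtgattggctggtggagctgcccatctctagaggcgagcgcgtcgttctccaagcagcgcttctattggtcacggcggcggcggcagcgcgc
GC made up 66.4%, 81.6% and 70.8% of the 3 promoters, against a median of 52.4% over 32851 RefSeq promoters, and they held 22, 41 and 29 CpG dinucleotides against a median of 6. The *Cebpa* promoter had a TATA box 30 to 25 bases before the start, a motif found in 12.4% of all promoters. None of the 6 motifs was found in the *Cebpb* and *Cebpg* windows. The *Cebpb* window ends in tgacgca, the variant TGACGCAA short of its last letter, and a match across the start was not searched.

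Distal sequences are shown for the 3 regions downstream of *Cebpb* that had the most ChIP reads by median percentile among those peaked in all clones. Each is 300 bases on the plus strand around the middle of the 3 clone summits. The windows lie 72.8 kb (chr2:167761571-167761870), 88.9 kb (chr2:167777627-167777926) and 101.1 kb (chr2:167789854-167790153) after the *Cebpb* start. The windows at 72.8 and 101.1 kb are intergenic, and that at 88.9 kb lies in an intron of the long non-coding gene *Gm14321*. That gene starts 88.6 kb after the *Cebpb* start, and the peak there covered its start in every clone, so this region is also its promoter.
Plus 72.8 kb: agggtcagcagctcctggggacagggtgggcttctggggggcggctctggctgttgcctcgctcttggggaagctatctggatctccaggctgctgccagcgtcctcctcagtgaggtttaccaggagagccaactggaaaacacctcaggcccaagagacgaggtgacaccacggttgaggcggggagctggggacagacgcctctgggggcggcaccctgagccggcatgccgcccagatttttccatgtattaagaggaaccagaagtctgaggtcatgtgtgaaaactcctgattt
Plus 88.9 kb: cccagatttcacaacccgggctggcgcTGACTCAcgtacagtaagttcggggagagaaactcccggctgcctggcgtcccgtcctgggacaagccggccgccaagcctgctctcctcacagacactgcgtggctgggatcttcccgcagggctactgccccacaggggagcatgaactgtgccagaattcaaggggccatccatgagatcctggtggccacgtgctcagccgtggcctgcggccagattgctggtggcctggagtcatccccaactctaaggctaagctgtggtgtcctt
Plus 101.1 kb: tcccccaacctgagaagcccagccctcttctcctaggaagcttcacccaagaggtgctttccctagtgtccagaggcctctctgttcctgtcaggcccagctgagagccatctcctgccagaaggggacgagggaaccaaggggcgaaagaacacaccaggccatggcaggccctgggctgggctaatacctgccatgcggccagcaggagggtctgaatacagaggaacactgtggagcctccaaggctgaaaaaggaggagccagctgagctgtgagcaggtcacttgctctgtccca
The region at 88.9 kb held an AP-1 match, and no other motif was found in these 3 windows. Among the 18 regions within 150 kb of *Cebpb* that were peaked in all clones, 6 held an AP-1 match in the 300 bases at the summit, which is 33.3%. Over all summits the share was 6.69%, 8.96% and 8.10% in clones 1, 2 and 3. Those summits include weak peaks and peaks of a single clone, so the 2 sets are unlike. The share over all regions peaked in every clone was not computed. The 6 matches are given with 10 bases on either side, named by the distance of their region from the *Cebpb* start, minus meaning before it, with chromosome and coordinates.
Minus 135.9 kb (chr2:167552958-167552984): ccctggccggTGAGTCActctctgctg
Minus 118.5 kb (chr2:167570459-167570485): aggccttggcTGAGTCAtttcccgcca
Minus 102.8 kb (chr2:167586250-167586276): gcaggagatcTGACTCAaaaccttctt
Plus 9.2 kb (chr2:167697997-167698023): tccttgaatgTGACTCAggctctgagc
Plus 88.9 kb (chr2:167777644-167777670): gggctggcgcTGACTCAcgtacagtaa
Plus 145.5 kb (chr2:167834548-167834574): ggaaagcgagTGAATCAgaagtttaag
The C/EBP motif, the C/EBP-ATF motif, the cAMP response element, its variant and the TATA box were found in none of the 18 windows. In all summits the C/EBP motif was found in 0.493%, 0.456% and 0.567% of windows and the TATA box in 8.94%, 4.70% and 11.1%. These matches are letters in a window and were not tested for binding.

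A promoter peak, one that came within 1 kb of a start, was present in every clone at *Cebpa*, *Cebpb*, *Cebpd* and *Cebpg* and in no clone at *Cebpe*, so that 4 of 5 members had such a peak in each list. Among all protein-coding genes the share was 49.8%, 56.9% and 48.1% in clones 1, 2 and 3, and 46.5% had such a peak in all 3. Body peaks, which overlap the gene itself, were present in all clones at *Cebpb*, *Cebpd* and *Cebpg*, 3 of 5 against 48.3% of all genes. When a peak had to cover a start base, the promoter count fell to 3 of 5, because no *Cebpa* peak of clones 1 and 3 reached the start base.

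**Figure D1:**
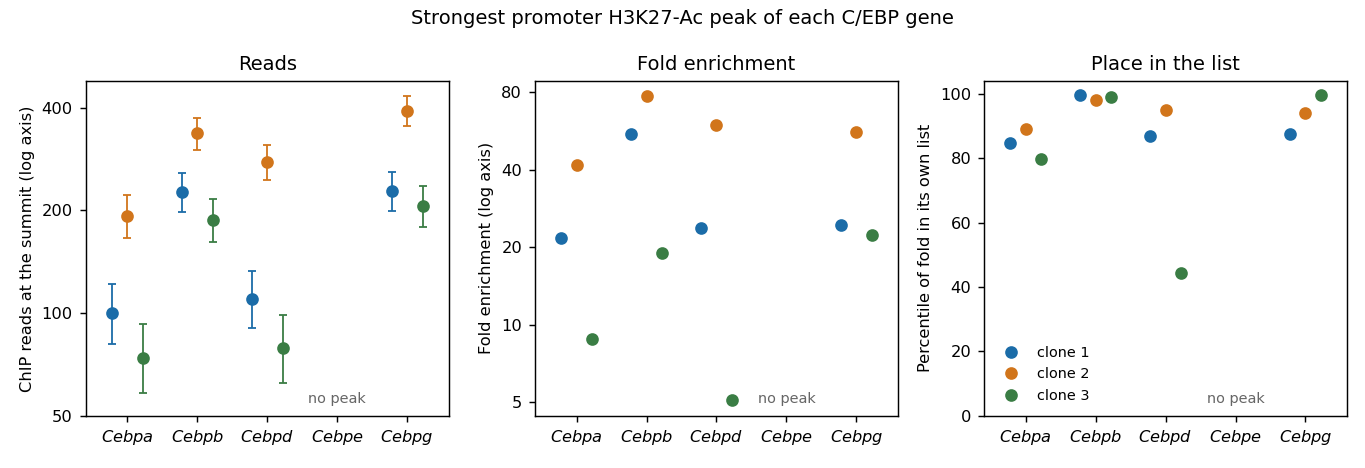
Strongest promoter H3K27-Ac peak of each C/EBP gene in clones 1 (blue), 2 (orange) and 3 (green), as ChIP reads at the summit with exact Poisson 95% intervals (left, log axis), fold enrichment (middle, log axis) and percentile of that fold within the clone's own list (right). *Cebpb* lies above the 98th percentile in every clone, *Cebpd* falls to 44.4 in clone 3, and *Cebpe* has no peak.

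At *Cebpb* (ENSMUSG00000056501.3, plus strand, chr2:167688915-167690418, a single exon) the promoter peak covered the whole gene. It ran for 5970 bp in clone 1, 7196 bp in clone 2 and 3145 bp in clone 3. The summit lay 561, 575 and 607 bp after the start, in the coding exon. It had 226 ChIP reads in clone 1, 336 in clone 2 and 187 in clone 3, with exact Poisson 95% intervals of 197 to 257, 301 to 374 and 161 to 216, which cover counting error only. The intervals of clones 1 and 3 overlapped and that of clone 2 lay above both. These reads are not scaled for library depth, so they do not compare the strength of the mark between clones. Fold enrichment was 54.8, 77.2 and 19.05. These peaks came 145th by fold in clone 1, 894th in clone 2 and 270th in clone 3, at percentiles of 99.5, 98.2 and 99.1. By length they came 50th, 18th and 320th. Among genes with a promoter peak, the fold at *Cebpb* was above that of 98.5%, 92.0% and 97.5% of them. GENCODE places the outermost start of *Tmem189*, which runs on the other strand and encodes an enzyme of plasmalogen synthesis, 0.907 kb after the *Cebpb* start, and that of the long non-coding gene *A530013C23Rik* 2.26 kb after it. The same peak therefore counts as a promoter peak of all 3 genes, and its reads cannot be divided among them.

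*Cebpb* was set in more peaks than any other member. Within 150 kb of its start clone 1 listed 53 peaks, clone 2 listed 106 and clone 3 listed 21, a mean of 60 ± 42.9 (SD, n = 3 clones). Clone 2 was highest and clone 3 lowest. They covered 58.9, 117 and 24.4 kb, or 19.6%, 39.0% and 8.12% of the window. Before the start lay 22, 52 and 10 of them and after the promoter 30, 53 and 10, so both sides were occupied in every clone. Leaving out promoter and body peaks, 52, 105 and 20 distal peaks were left. No other protein-coding gene had as many in clones 1 and 2, whereas 414 genes had more in clone 3, where 108 others had 20. The median over all genes was 4, 7 and 5. Of the distal peaks 7, 9 and 5 came within 1 kb of the start of another gene and 45, 96 and 15 did not. The outermost peaks inside the window had 39 and 28 reads in clone 1, 75 and 37 in clone 2 and 74 and 37 in clone 3. The nearest peaks outside it had 97 and 24 reads, 22 and 17 reads, and 81 and 40 reads.

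Merged over clones, the window held 106 regions, of which 18 were peaked in all clones, 19 in clones 1 and 2 and 69 in a single clone. Clone 2 alone held 65 of these 69, clone 1 held 4 and clone 3 held none. Shared regions made up 17.0% of those at *Cebpb* and 27.3% of the 57727 regions in all. Those of a single clone made up 65.1% and 58.7%. No region of the window was peaked in clone 3 without a peak of both other clones. The clone 2 list was the longest, and the share of all regions held by each clone alone was not computed. Whether these counts are particular to *Cebpb* can therefore not be said.

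The joined domain of *Cebpb*, formed by chaining peaks no more than 12.5 kb apart, differed by clone. In clone 1 it ran from 2.68 kb before the start to 112 kb after it, held 22 peaks and had 27288 bp under peaks, and ranked 12th of 14560 domains by those bases. For clone 2 it ran from 3.56 kb before to 206 kb after the start, with 71 peaks and 83571 bp, and ranked 3rd of 18280. For clone 3 it was 20.8 kb long with 3 peaks and 4016 bp, and ranked 983rd of 16371. The mean was 38.3 ± 40.9 kb under peaks (SD, n = 3 clones), so the spread between clones was larger than the mean. By length the ranks were 1, 5 and 513. The domain was thus long in clones 1 and 2 and short in clone 3 under these settings. The lists of clones 1 and 2 were filtered for allelic mapping bias and largely share control reads, while that of clone 3 was merged from its libraries, so clone and processing cannot be told apart.

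**Figure D2:**
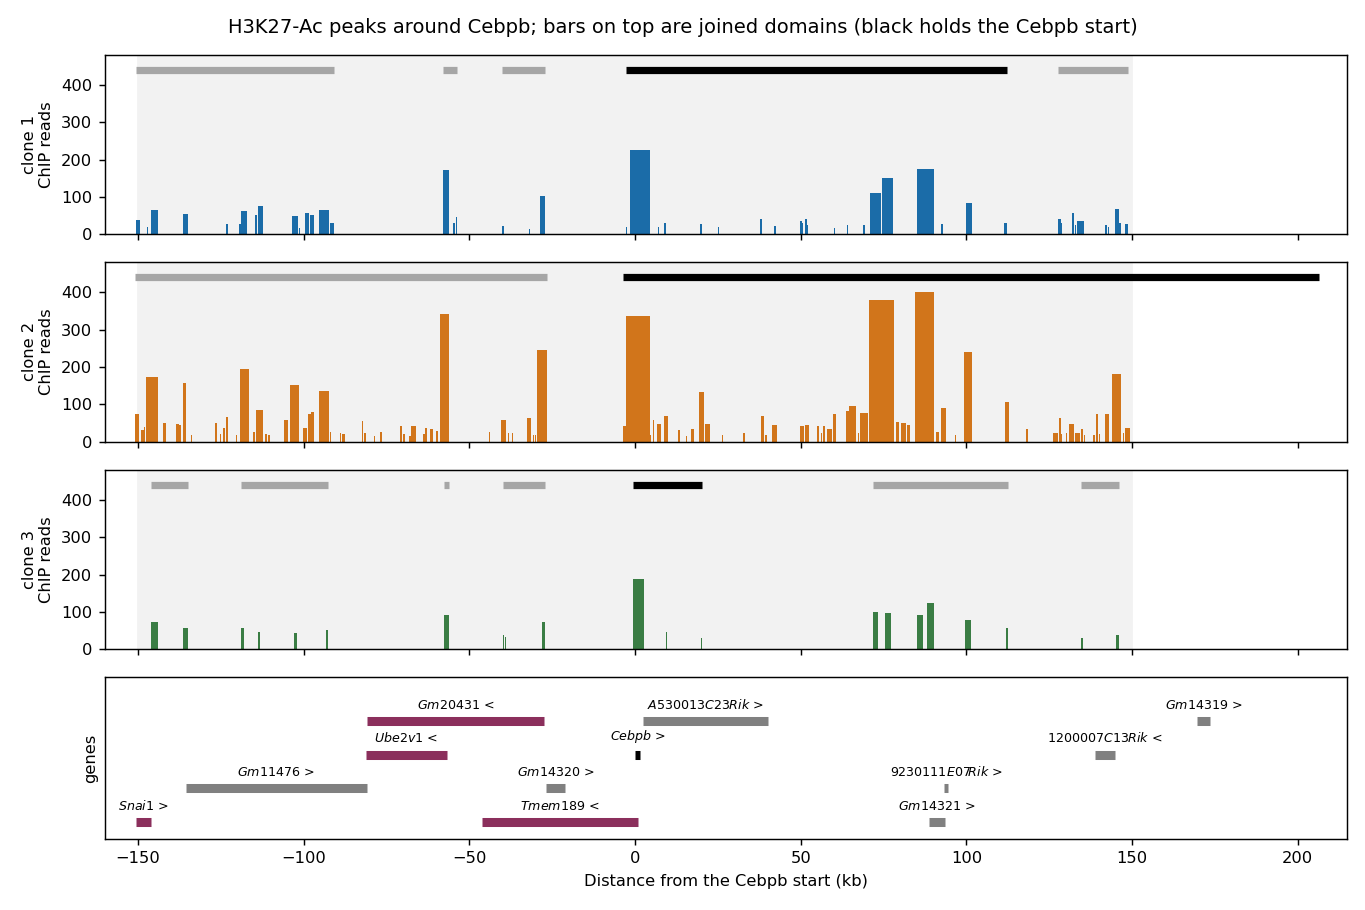
H3K27-Ac peaks around *Cebpb* by distance from its start in kb, in clones 1, 2 and 3 from top to bottom. The height of a block is the ChIP reads at its summit, the bars at the top are joined domains with the one that holds the *Cebpb* start in black, grey shading marks 150 kb on each side, and genes are below (protein-coding in purple, long non-coding in grey, > or < for the strand); the black bar of clone 3 ends 20.3 kb after the start, and the blocks near 73 and 89 kb appear in all clones.

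What separated clone 3 was a stretch of 51.6 kb with no listed peak, from 20.3 to 71.9 kb after the start. In it clone 1 had 11 peaks with 17 to 42 reads, median 24, over 4754 bp. Clone 2 had 18 peaks with 17 to 96 reads, median 43, over 17489 bp. The weakest peak of the whole clone 3 list rested on 25 reads, and whether weaker sites were present in clone 3 could not be seen at this depth. Beyond the gap clone 3 formed a domain of its own from 71.9 to 112 kb after the start, with 6 peaks and 9508 bp, ranked 86th. In clones 1 and 2 these peaks belonged to the *Cebpb* domain.

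When only regions peaked in all clones are joined, the gap of clone 3 breaks the chain by construction. The shared domain at *Cebpb* then had 3 regions and 9563 bp over 23.4 kb and ranked 203rd of 11787 by bases and 261st by length, while the group from 167759477 to 167801664 on chromosome 2 had 4 regions and 17153 bp and ranked 38th. By the clone 3 list the stretch is not a single long domain in all clones, although *Cebpb* was chosen as lying in such a domain. Ordered by the median of the 3 clone ranks, the domain at *Cebpb* had a value of 12. Directly above it came the domain of *Anxa2*, which encodes a calcium-dependent membrane-binding protein, with a median rank of 11. A domain on chromosome 19 from 5786513 to 5819882 with no protein-coding start had 12. The group downstream of *Cebpb* itself also had 12, but it is not a separate domain in clones 1 and 2. There it lies in the same joined domain as *Cebpb* and so has the same ranks, 12 and 3. Only in clone 3 do the ranks differ, 86 against 983. Directly below came the domains of *Adamtsl4* and *Mcl1*, of *Lmna* and *Mex3a*, and of the *Hoxb4* to *Hoxb9* genes, with median ranks of 13, 14 and 17. These domains also varied by clone, but none came as low in any clone as *Cebpb* did in clone 3, at 983rd. By the bases of shared regions, those of *Anxa2*, chromosome 19, *Adamtsl4* and *Mcl1*, *Lmna* and *Mex3a*, and *Hoxb* ranked 10th, 11th, 7th, 14th and 13th. *Cebpb* ranked 203rd by that measure. That of *Anxa2* ranked 11th, 336th and 10th in clones 1, 2 and 3, the chromosome 19 domain 1st, 18th and 12th, that of *Adamtsl4* and *Mcl1* 7th, 107th and 13th, that of *Lmna* and *Mex3a* 14th, 102nd and 11th, and the *Hoxb* domain 13th, 17th and 29th.

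**Figure D3:**
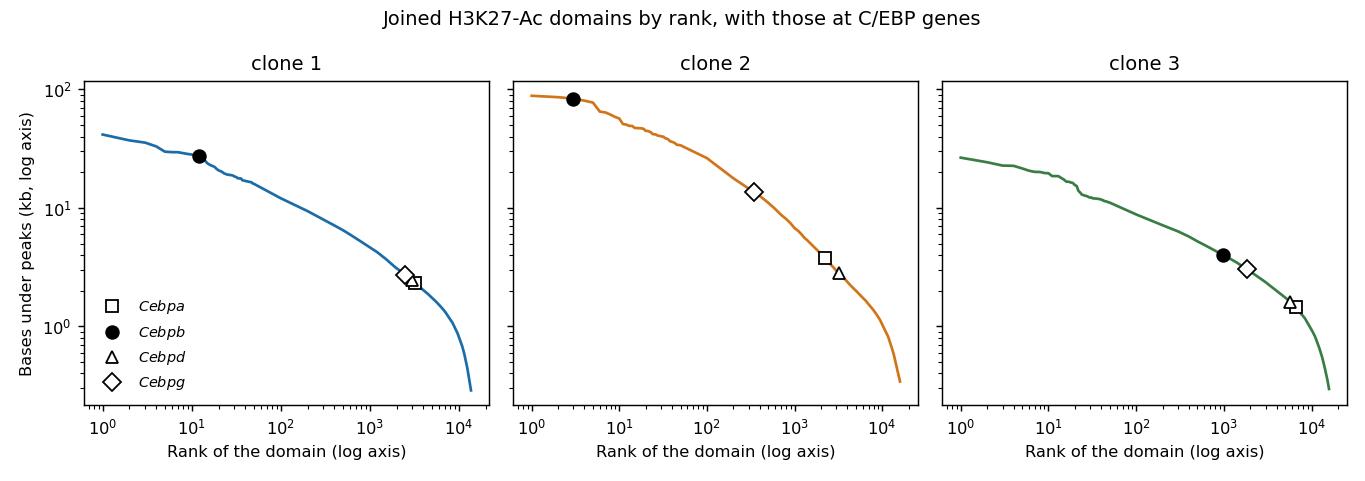
Bases under peaks of every joined domain (kb, log axis) against its rank (log axis) in each clone, with the domains at *Cebpa* (square), *Cebpb* (filled circle), *Cebpd* (triangle) and *Cebpg* (diamond). *Cebpb* lies at ranks 12 and 3 in clones 1 and 2 and at 983 in clone 3, and the other members lie further right in clones 1, 2 and 3.

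The reach of the domain depended on the settings. When the −log10 q had to reach 5, the clone 1 domain shrank to 21.9 kb and rank 307, that of clone 2 stayed at 207 kb and rank 2, and that of clone 3 was 10.2 kb at rank 878. When each list was held to its 29182 strongest peaks by q, the clone 2 domain shrank to 26.0 kb and rank 127, beside 115 kb and rank 12 in clone 1. Joining over 5 kb gave 12.1, 30.1 and 3.15 kb at ranks of 190, 110 and 1137. The peaks within 150 kb kept the order of the clones in each of these lists, with 43, 79 and 16 at the stricter q and 53, 66 and 21 at equal list size.

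Of the 18 regions around *Cebpb* with a peak in all clones, the region at the promoter had the most reads in clones 1 and 3. Next by median percentile was the region 88.9 kb after the start, at the *Gm14321* promoter. It had 175, 401 and 125 reads in clones 1, 2 and 3 and fold enrichments of 38.6, 86.5 and 9.89. Its clone summits lay within 37 bp of each other. In clone 2 this region had more reads than the promoter itself. The region 57.1 kb before the start, at the *Ube2v1* promoter, had 173, 343 and 93 reads. The region 72.8 kb after the start had 150, 379 and 101, in 7638 bp, but its clone summits were 3269 bp apart, so the tallest point of this wide region was not at the same place in each clone. The region 27.6 kb before the start, where *Tmem189*, *Gm20431* and *Gm14320* have starts, had 101, 247 and 73 reads. That at 101.1 kb had 83, 241 and 78 reads. In the first 50 kb after the promoter the shared regions had 29, 68 and 46 reads at 9.22 kb and 28, 132 and 30 at 20.1 kb, both in introns of *A530013C23Rik*. Further out, 6 shared regions lay between 145.1 and 93.0 kb before the start, 4 of them in introns of the long non-coding gene *Gm11476*, with 48 to 75 reads in clone 1, 86 to 195 in clone 2 and 44 to 74 in clone 3.

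The widest *Cebpb* domain and the 150 kb window touched 4 other protein-coding and 7 long non-coding genes, of which 3 and 5 had a promoter peak in all clones. Over all protein-coding genes the share was 46.5%, and none was computed for long non-coding genes. The locus was picked for its peaks, and some of these genes are counted through the same peak. *Tmem189* and *A530013C23Rik* share that of *Cebpb*, and *Gm14320* shares that of *Gm20431*. *Ube2v1*, which encodes a partner of a ubiquitin-conjugating enzyme, starts 56.8 kb before *Cebpb* and had fold enrichments of 18.6, 29.6 and 8.89. *Gm20431*, which GENCODE lists as a coding gene that spans *Ube2v1* and part of *Tmem189*, shared its promoter peak with the inner starts of *Tmem189* and had 21.9, 53.4 and 7.84. *Snai1*, which encodes a repressor of epithelial genes, starts 150.7 kb before *Cebpb*, just outside the window, although its body reaches in. It had a promoter peak with 39 reads in clone 1 and 75 in clone 2 and none in clone 3. Of the long non-coding genes, *Gm11476*, *Gm14320*, *A530013C23Rik*, *Gm14321* and *1200007C13Rik* had a promoter peak in every clone, *9230111E07Rik* had one of 26 and 90 reads in clones 1 and 2 only, and *Gm14319* had none. Which of these genes a distal peak acts on was not measured.

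*Cebpd* (ENSMUSG00000071637.5, plus strand, chr16:15887286-15891031) was peaked at its start in all clones. The peak ran for 2453, 2296 and 1607 bp and had 110 ChIP reads in clone 1, 277 in clone 2 and 79 in clone 3, with 95% intervals of 90.4 to 133, 245 to 312 and 62.5 to 98.5. Its summit lay 213, 412 and 239 bp after the start, in the coding exon. Fold enrichment was 23.8, 59.8 and 5.07, at percentiles of 87.0, 94.9 and 44.4. Compared only with genes that had a promoter peak, it was above 64.0%, 77.3% and 15.1% of them. The low place in clone 3 went with a background of 4 control reads at that summit, against 1 in each of the other clones, while by ChIP reads alone the clone 3 peak stood at a percentile of 74.9. Its domain was that single peak in clones 1 and 3 and 2 peaks in clone 2, with 2453, 2821 and 1607 bp under peaks and ranks of 2942, 3208 and 5743. The additional clone 2 peak, with 18 reads, lay in the 3′ part of the gene. Distal peaks numbered 9, 8 and 6, against medians of 4, 7 and 5 over all genes. Of these, 1 in each clone was at the start of *Mzt2*, 24.1 to 24.4 kb before *Cebpd*. The others shared by all clones lay in introns of *Spidr*, a DNA repair gene, 71.8, 96.7 and 105.2 kb after the start, with 19 to 68 reads.

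*Cebpa* (ENSMUSG00000034957.10, plus strand, chr7:35119293-35121928) and *Cebpg* (ENSMUSG00000056216.9, minus strand, chr7:35046422-35056573) are neighbours that point away from each other, so their windows share peaks. At *Cebpa* the strongest promoter peak had its summit before the start, 514, 520 and 535 bp away, in an intron of the long non-coding gene *Gm45091*. It had 100, 192 and 74 ChIP reads, with 95% intervals of 81.4 to 122, 166 to 221 and 58.1 to 92.9, and a fold enrichment of 21.7, 41.6 and 8.77 at percentiles of 84.8, 89.1 and 79.9. The intervals of clones 1 and 3 overlapped and that of clone 2 lay above both, in reads not scaled for library depth. In clone 2 the peak crossed the start and ran into the gene for 3168 bp in all. In clone 1 the mark was split in a peak of 1170 bp before the start and another of 1137 bp with 80 reads that began 0.031 kb after it, and in clone 3 the peak ended 0.203 kb before the start and no peak lay in the gene. Among genes with a promoter peak, the *Cebpa* fold was above 58.4%, 53.8% and 54.4% of them, near the middle. The domain had 2307, 3769 and 1446 bp under peaks and ranked 3233rd, 2250th and 6638th.

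At *Cebpg* the promoter peak had more reads than that of any other member in clones 1, 2 and 3. There were 228, 392 and 206 reads, with 95% intervals of 199 to 260, 354 to 433 and 179 to 236. The intervals overlapped those of *Cebpb* in each clone, and the difference between these genes was not tested. Fold enrichment was 24.4, 56.3 and 22.3, above that of 65.5%, 73.4% and 99.3% of the genes with a promoter peak. The background at the summit was 3, 2 and 1.90 control reads, against 0.765, 0.877 and 2.08 at *Cebpb*, and the fold of *Cebpg* was below that of *Cebpb* in clones 1 and 2 and above it in clone 3, where it came 70th in the whole list. The summit lay 202, 255 and 190 bp after the outermost start, where the long non-coding gene *Gm45095* overlaps *Cebpg*. Its domain had 2729, 13592 and 3020 bp under peaks, at ranks of 2492, 345 and 1850. The clone 2 domain was 67.2 kb long with 18 peaks, most of them in introns of the neighbouring *Pepd* gene, which encodes a dipeptidase. Those of clones 1 and 3 were 10.1 and 10.2 kb long with 2 peaks each.

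Between *Cebpa* and *Cebpg* lay 2 regions peaked in all clones. The region 38.0 kb before the *Cebpa* start, in intergenic sequence, had 82, 56 and 95 reads and a fold enrichment of 16.8, 5.00 and 11.9. Clone 2 was lowest here, although it was highest at all 4 promoters, in reads not scaled for library depth. Its low fold went with a background of 4 control reads at that summit, against 1.125 and 1.54 in clones 1 and 3. The region 54.5 kb before the start had 22, 42 and 43 reads. Beyond *Cebpa*, a region 115.8 kb after its start had 32, 131 and 59 reads. In all, *Cebpa* had 4, 22 and 6 distal peaks and *Cebpg* 5, 23 and 5. Of the 24 regions within 150 kb of *Cebpa*, 5 were peaked in all clones, which is 20.8% against 27.3% of all regions. Another 18 were peaked in clone 2 alone, the longest list, 1 in clone 3 alone and none in a pair of clones.

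*Cebpe* (ENSMUSG00000052435.7, minus strand, chr14:54710360-54712174) had neither a promoter nor a body peak in any clone. The nearest peak was 24.4, 24.7 and 24.3 kb away, 24.5 ± 0.259 kb (SD, n = 3 clones). It lay at the starts of *Acin1* and *1700123O20Rik* and had 205, 367 and 123 reads. All 11, 15 and 14 distal peaks lay on the downstream side, and none lay in the 150 kb before the start. Of them 7, 10 and 9 came within 1 kb of the start of another gene, such as *Psmb5* and *Ajuba*, so that only 4, 5 and 5 did not. Of 15 regions, 10 were peaked in all clones, 66.7% against 17.0% at *Cebpb*. A missing peak says that no site passed the caller's threshold, and transcription itself was not measured.

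**Figure D4:**
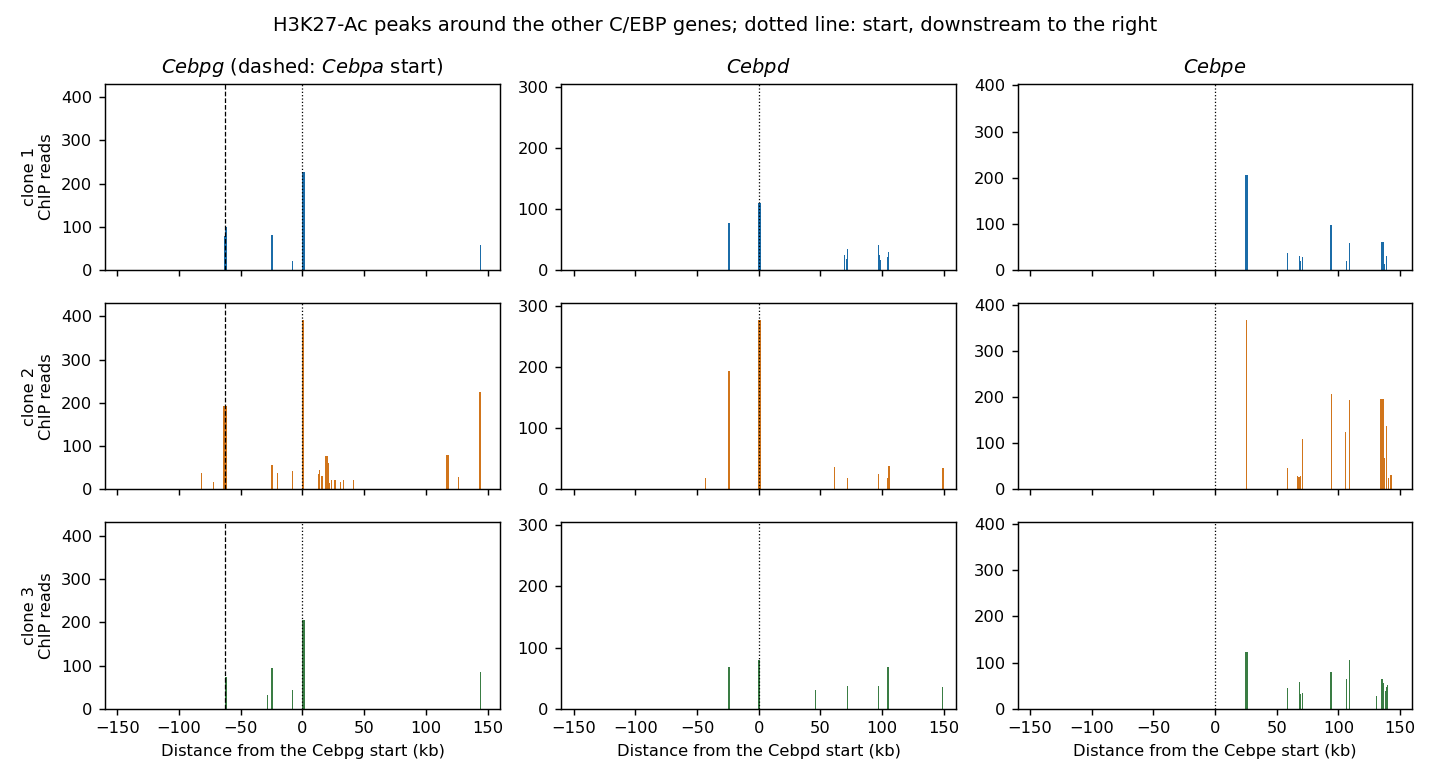
H3K27-Ac peaks within 150 kb of *Cebpg* (left, with the *Cebpa* start as a dashed line), *Cebpd* (middle) and *Cebpe* (right) in clones 1 to 3 from top to bottom, by distance from the start in kb with the downstream side to the right. Block height is ChIP reads at the summit and narrow peaks are widened to be visible; *Cebpg* and *Cebpd* have a block at the dotted start line in every clone, and at *Cebpe* the nearest block stands 24.3 to 24.7 kb downstream.

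In the AP-1 family of *Fos* and *Jun* genes, promoter peaks were present in every clone at 7 of 7 members and in the nuclear factor I family at 4 of 4. Within its list, the fold of the C/EBP promoter peaks lay between percentiles of 84.8 and 99.5 in clone 1, 89.1 and 98.2 in clone 2 and 44.4 and 99.8 in clone 3. For AP-1 the ranges were 92.1 to 99.5, 93.7 to 99.9 and 87.2 to 99.6, and for nuclear factor I 61.1 to 97.7, 82.2 to 96.8 and 30.1 to 95.6. These percentiles are among all peaks of a list, at promoters or not. Over genes with a promoter peak the median fold was 18.8, 39.3 and 8.30 in clones 1, 2 and 3. The median over all peaks was 7.70, 7.14 and 5.38, so a promoter peak of middling fold already stands high in its list. The difference between families was not tested.

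Genes that work with C/EBP proteins were read from 6 lists with 58 genes. A promoter peak was present at 33 of them in clone 1, 44 in clone 2, 34 in clone 3 and 33 in every list, and 14 lacked one throughout. Of all protein-coding genes, 49.8%, 56.9% and 48.1% had one in clones 1, 2 and 3, and 46.5% had one in every list. The difference from that share was not tested. Of 11 bZIP relatives and partners 8 were peaked in all clones. *Tef*, a clock output factor, had a fold enrichment of 50.6, 87.8 and 17.5, and *Nfil3*, its repressor counterpart at the same sites, had 50.3, 75.9 and 18.6. *Atf4*, the stress response factor that pairs with C/EBPβ and C/EBPγ, had 55.0, 80.2 and 17.1, and *Atf3*, another stress factor, 36.2, 64.0 and 9.33. All 7 regulators of C/EBP protein were peaked in all clones. Among them *Gsk3b*, a kinase of C/EBPα and C/EBPβ, had 41.2, 85.5 and 15.3, and *Trib1* and *Trib2*, which take C/EBPα to degradation, had 38.2, 56.0 and 16.7 and 31.6, 58.0 and 9.38. *Tef*, *Atf4* and *Trib1* lie on chromosome 15, where the background at summits was 1.31, 1.29 and 1.35 times that of the other autosomes in clones 1, 2 and 3; on chromosomes 2, 7, 14 and 16, which hold the C/EBP genes, it was 0.920 to 0.995 times.

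Each of the 15 genes of the signals that induce *Cebpb* or *Cebpd* was peaked at its promoter in every clone. *Rela* and *Nfkb1*, subunits of NF-κB, had a fold enrichment of 55.9, 91.0 and 12.2 and of 46.3, 82.9 and 8.03. *Il6st*, the shared receptor chain of the interleukin 6 family, had 44.1, 65.6 and 11.8, and *Jak1*, its kinase, 35.4, 41.5 and 21.1.

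Lists of genes that C/EBP proteins are known to activate held fewer peaks. Of 11 targets in epidermis and acute phase 3, 6 and 4 had a promoter peak and 3 had one in all clones. These were *Ptgs2*, which encodes the inducible cyclooxygenase, with a fold enrichment of 19.6, 47.1 and 8.04, *Krt10*, a keratin of differentiating epidermis, with 9.44, 35.3 and 6.60, and *Cxcl1*, a chemokine, with 9.23, 21.2 and 5.93. *Krt1*, *Ivl*, *Lor*, *Sprr1a* and *Saa3* had none in any clone. Of 6 targets in fat cells and 8 in myeloid cells none had a promoter peak in clones 1 and 3, and 2 and 4 had one in clone 2, the longest list. With 46.5% of all genes peaked in every clone, the signal, regulator and bZIP lists lay above that share and the 3 target lists below it. In clone 2 the epidermis and acute phase list, with 6 of 11, was close to the 56.9% of all genes. The lists are short and were chosen by hand, and the differences between them were not tested.

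**Figure D5:**
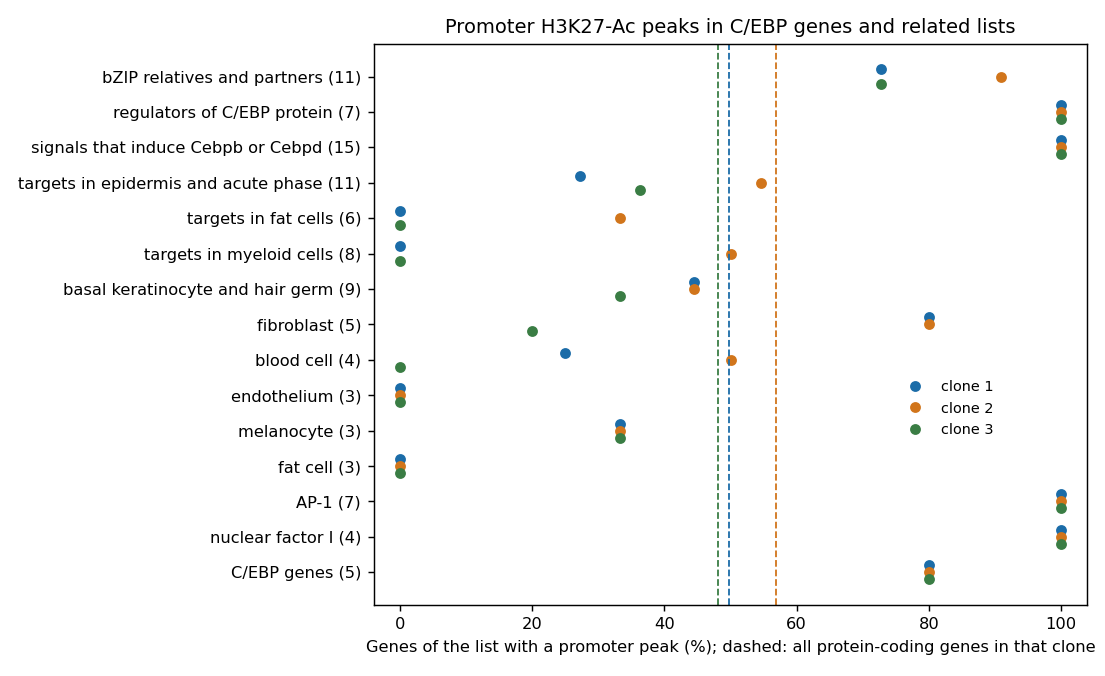
Share of the genes of each list with a promoter H3K27-Ac peak (%), in clones 1 (blue), 2 (orange) and 3 (green), with the number of genes in brackets; the dashed lines are the 49.8%, 56.9% and 48.1% of all protein-coding genes with a peak in clones 1, 2 and 3, in the same colours. Regulators, signals, AP-1 and nuclear factor I stand at 100% in every clone, and the fat and myeloid targets at 0 in clones 1 and 3.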

How the data were processed

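H3K27-Ac peak lists of 3 clones were used. Single-end reads had been aligned by the authors to GRCm38 with bowtie2, and the submitters' processing notes name MACS2 2.1.1. Names within the lists mark clones 1 and 2 as filtered for allelic mapping bias and clone 3 as merged from its libraries. Fold enrichment as deposited is the ratio of pileup to local background at the summit, and the summit's p-value and q-value are deposited as −log10. No read counts are given in the lists. Reads and background were solved from fold and p, which gave whole ChIP reads for all but 1 peak each of clones 1 and 2, to within 0.000656 read, and was tested on simulated data.

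Outside chromosomes 1 to 19, X and Y, 5, 21 and 3 peaks were left out. Starts came from GENCODE M21. A promoter peak lay within 1 kb of a start, a distal peak within 150 kb, and peaks up to 12.5 kb apart were joined. Peaks of different clones that shared 1 bp counted as shared. Python 3.11.15, numpy, pandas and scipy were used, and intervals cover counting error only. No test between groups was made, as there is 1 condition. The members, lists and motifs were chosen with earlier results of these data known. Named were the 5 members, the genes in or near the *Cebpb* domain, at most 4 genes of each list with a promoter peak in all clones by median percentile of fold, and the 3 domains above and below that of *Cebpb*; list genes and markers without a peak, other neighbouring genes and the regions picked out were named after their values were seen. For 1 gene that the rule names, values are not reported here. As alternatives, a −log10 q of 5 or more, equal list sizes, other promoter, distal and joining distances, rankings and overlaps, and the omission of each clone were tried.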

Additional observations from a re-analysis of the deposited data

How the results depend on the processing

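Of 60 recomputed values, 53 moved by less than the spread between clones or, for counts, by no more than 1.5 times, and 7 moved more. That spread is wide for the *Cebpb* domain, so the values of each clone given above show more than these means. Regions shared by all clones were counted within the widest *Cebpb* domain, which was the 210 kb domain of clone 2 in the main setting. There were 12, against 3 in the shared domain joined from such regions alone. The number became 7 with a −log10 q of at least 5 and 7 with lists of equal size. It became 3 with joining over 5 kb and 6 with summits within 250 bp of each other. The widest domain was 115 kb long at equal list size and 30.1 kb with joining over 5 kb, so fewer regions could be counted there. Beyond that, the cause was not tested. The mean domain length fell from 115 to 15.1 kb with joining over 5 kb, because that setting leaves out peaks further apart. Within 50 kb in place of 150 kb there were 15 peaks on average in place of 60, because the window is smaller. Leaving out each clone gave 8 to 26 shared regions, 4 C/EBP genes with a promoter peak each time, 3 or 4 with a body peak and 33 or 34 related genes. The mean bases under peaks went from 15652 without clone 2 to 55430 without clone 3, the mean length from 67.9 to 162 kb, the peaks within 150 kb from 37 to 79.5, and the median rank from 7.5 without clone 3 to 498 without clone 2. No paired analysis was possible because there is 1 condition and no group to pair with. A site without a peak may lie under the read threshold, and with 3 clones every SD is rough.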
